A study of Mus musculus with 15 samples.

Results

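The 43 genes described here encode proteins that copy DNA or make its building blocks, measured in splenic B cells of the mouse. They were listed by symbol according to their function; the rule used no measured value, although earlier results of these data were known when the list was drawn up. The list holds 18 genes of helicase loading and activation, 16 of the polymerases, primase, clamp and their fork partners, 5 of deoxynucleotide synthesis, 2 of chromatin assembly and 2 E2F activators. All 43 were found among the 54838 gene IDs of the count table, and all 43 were among the 17144 genes that passed the filter on low counts.

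RNA was sequenced from 15 libraries, 3 in each of 5 groups, and the libraries of each group carry the letters A, B and C. The CD40, CpG and LPS groups were naive B cells activated in culture for 5 days. They received anti-CD40 antibody at 5 µg/ml with mouse IL-4 at 80 ng/ml, CpG oligonucleotide at 2 µM, or lipopolysaccharide (LPS) at 25 µg/ml, and the labels leave unclear if CpG and LPS cultures received IL-4 as well. The medium was one made for embryonic stem cells, renewed with the stimuli on day 0 and day 3. The GC group was sorted germinal centre B cells, and the naive group was sorted naive B cells; no strain is named. All 5 groups came from WT males aged 3 months, killed 9 days after immunisation with sheep red blood cells (SRBC), so that the naive cells also came from immunised animals. The series text names 3 x 2 individual mice and can be read as GC cells also entering culture; the sample labels do not describe GC or naive libraries as activated, and they were treated as uncultured. The animals behind each letter, and any pooling, are not stated. The p-values therefore reflect only how far libraries of a group differ, which may be technical.

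Before a cell divides, the origin recognition complex (ORC), CDC6 and CDT1 place rings of MCM2 to MCM7 on DNA, and CDC45, the GINS complex and MCM10 later turn these rings into running helicases. Polymerases alpha, delta and epsilon then copy both strands from supplies of deoxynucleotides, and chromatin is rebuilt behind them. Many of these genes are targets of E2F transcription factors, which are held in check in resting cells. Resting naive B cells leave this state on activation, and germinal centre B cells are among the fastest dividing cells of the body.

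E2F factors bind short sites made of 3 T, a pair of C or G bases, then CGC. RefSeq promoter windows on GRCm38, which hold 250 bases before and 50 after each start, were found for 35 of the 43 genes. The windows were searched on both strands for the octamers TTTCCCGC, TTTCGCGC, TTTGCCGC and TTTGGCGC. At least 1 octamer lay in the windows of 14 of the 35 genes (40.0%), against 704 of all 27025 genes with a window (2.60%) and 494 of the 10821 tested genes with one (4.57%). The 14 were Orc1, Cdc6, Cdt1, Mcm3, Mcm5, Mcm6, Mcm7, Gins3, Pola1, Pold1, Pole2, Rfc3, Lig1 and E2f2. The pentamer CCAAT was present for 20 of the 35 (57.1%), against 41.1% of all genes with a window and 42.5% of tested genes. The hexamer TTTGAA was present for 6 of the 35 (17.1%), against 20.2% of all genes and 14.5% of tested genes. A match is a description of the letters in the window and not a bound site.

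The 5 stretches below are 80 bases each from before the RefSeq start of the window. Octamers are in capitals, some on the opposite strand and overlapping where the capitals run past 8 letters. The RefSeq start can differ from the gene bounds used for the coordinates in this report. The Cdc6 stretch and the Orc1 and Rfc3 octamers lie inside those bounds. Mcm6 and Pola1 show the E2F octamers of a helicase and a polymerase gene. Cdc6, Orc1 and Rfc3 were added after their values were seen, because the results below turn on them.
Mcm6 (chr1:128359772-128359851, minus strand): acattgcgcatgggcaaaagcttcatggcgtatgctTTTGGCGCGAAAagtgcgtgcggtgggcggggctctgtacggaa
Pola1 (chrX:93632250-93632329, minus strand): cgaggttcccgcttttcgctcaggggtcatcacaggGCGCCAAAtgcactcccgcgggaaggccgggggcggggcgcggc
Cdc6 (chr11:98907977-98908056, plus strand): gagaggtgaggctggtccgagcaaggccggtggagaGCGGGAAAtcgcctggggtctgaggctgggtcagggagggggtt
Orc1 (chr4:108579374-108579453, plus strand): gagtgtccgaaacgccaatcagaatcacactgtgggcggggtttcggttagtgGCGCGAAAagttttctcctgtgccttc
Rfc3 (chr5:151651209-151651288, minus strand): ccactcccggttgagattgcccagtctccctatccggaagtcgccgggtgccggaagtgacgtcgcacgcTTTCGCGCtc

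Libraries held 25397624 to 36272197 counts. All 8 B cell markers were detected in every library. The summed level of 8 GC markers was 901 to 1757 CPM (counts scaled to TMM-adjusted library size) in the activated libraries, 3227 to 3488 CPM in GC libraries and 125 to 178 CPM in naive libraries. Of these, Rgs13 had 0 counts in all 9 activated libraries. The 8 follicular markers summed to 535 to 1480 CPM in activated, 618 to 773 CPM in GC and 7149 to 9105 CPM in naive libraries. Other marker lists also moved with the groups. The 7 plasma cell markers summed to 2016 to 6647 CPM in activated, 1914 to 2395 CPM in GC and 470.0 to 524 CPM in naive libraries. The 10 T cell markers summed to 32.0 to 46.6 CPM in activated, 163 to 175 CPM in GC and 58.2 to 77.6 CPM in naive libraries, most of it Lck, while Cd3e was at or near 0 in every library. The 6 stroma and endothelium markers summed to at most 25.3 CPM in activated libraries, 37.0 to 45.2 CPM in GC and 277 to 361 CPM in naive libraries, most of it Pecam1, with Col1a1 and Col3a1 at or near 0 throughout.

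Fewer genes had a count in naive libraries A and B, 13920 and 11523, than in the other 13 libraries, which had 16314 to 19320. Naive library B also stood apart in other ways. It held 126 CPM of the haemoglobin gene Hba-a1, 137 CPM of Hbb-bs and 26.8 CPM of the myeloid gene Mpo, where activated and GC libraries held at most 1.04 CPM of each and naive library A held 9.78 and 18.5 CPM of the haemoglobin genes. Of the 43 genes, Cdc6, Mcm10, Pole2, Fen1, Chaf1a and Chaf1b had 0 counts in it. The part of these differences in the results was not tested. Counts of the 43 genes against naive cells are given below with and without that library.

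GC B cells carried far more transcript of the replication machinery than naive B cells. Tests were edgeR's quasi-likelihood test, with p-values adjusted by Benjamini-Hochberg, and a gene is called at an adjusted p under 0.05. By this test, 40 of the 43 genes rose in GC cells, 0 fell and 3 were not called. Among all genes tested, 17.9% were called higher and 16.5% lower. The median log2 fold change of the 43 was 2.83, and that of all genes tested was 0.00. Without naive library B, 41 of the 43 were called higher. These are bulk samples, in which more dividing cells and more RNA per cell cannot be told apart.

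Activated cells also held more of most of these transcripts than naive cells. Against naive cells, 36 genes rose and 1 fell with CD40, where 19.8% of all genes were called higher and 14.3% lower. With CpG, 35 rose and 1 fell, against 19.7% and 14.0% of all genes. With LPS, 36 rose and 2 fell, against 19.5% and 14.2% of all genes. The median log2 fold changes of the 43 were 1.94, 1.94 and 1.90 for CD40, CpG and LPS, beside 0.17, 0.18 and 0.18 over all genes. Without naive library B, the genes called higher were 38 with CD40, 37 with CpG and 38 with LPS, and 1 was called lower with each. The 3 comparisons and that of GC cells share the naive libraries, so they are not independent of one another.

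**Figure D1:**
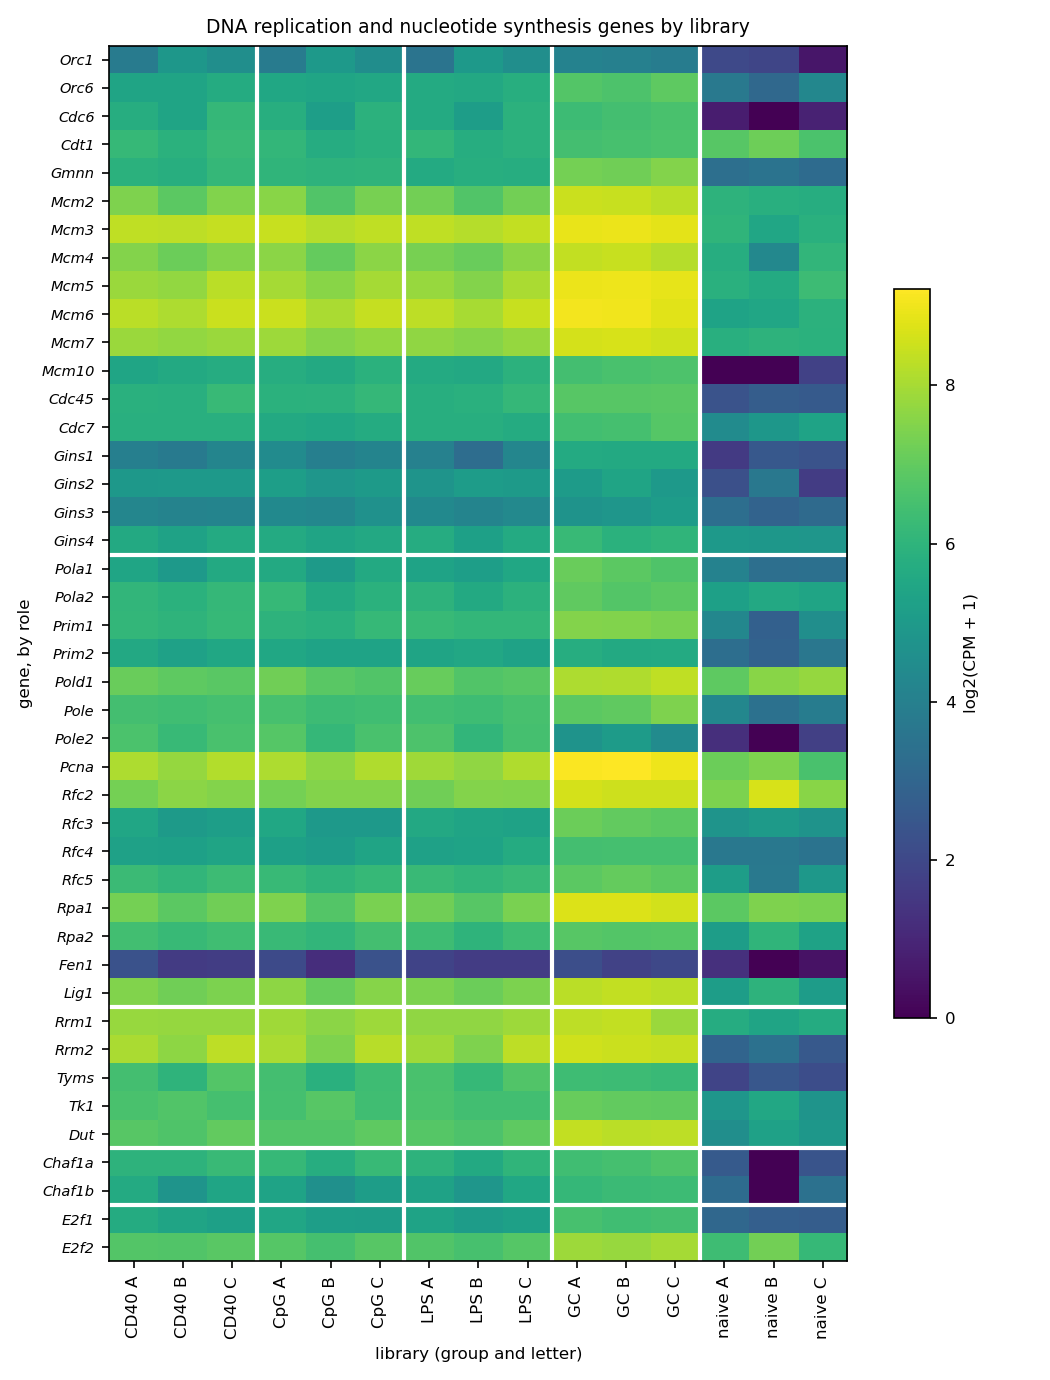
Level of each of the 43 genes in each of the 15 libraries, as log2(CPM + 1), with genes down the page by role and libraries across it by group and letter. GC libraries are brightest for most genes and naive libraries darkest, while Cdt1, Pold1, Rfc2 and E2f2 are well lit in naive libraries and Fen1 is dark in all 15.

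**Figure D2:**
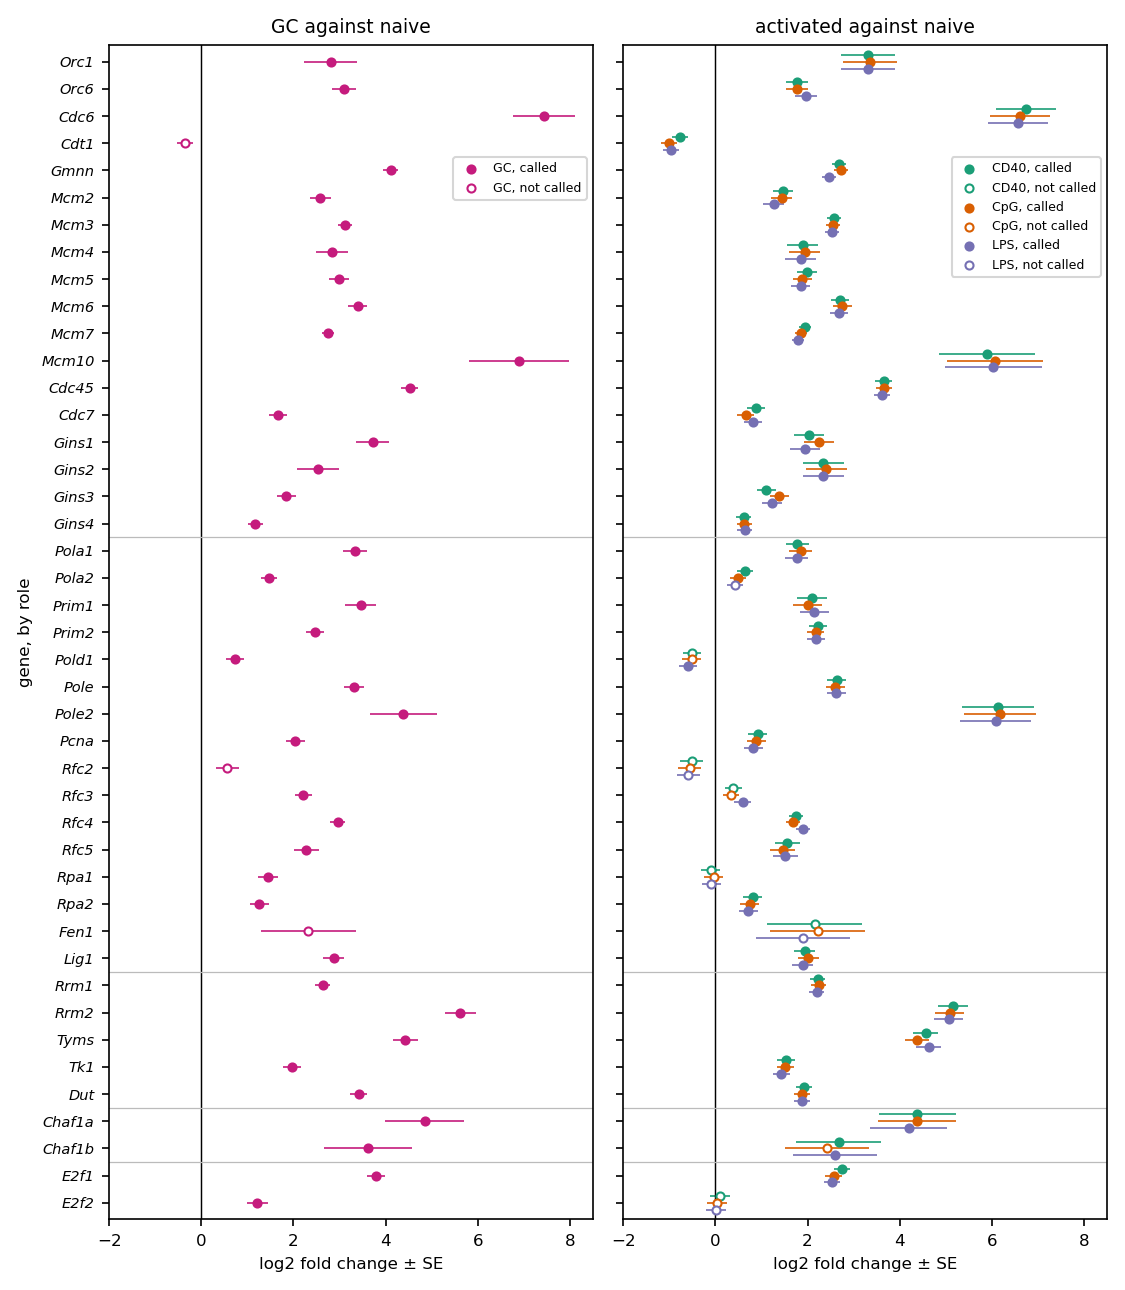
Log2 fold change with its SE for each of the 43 genes, GC against naive on the left and CD40, CpG and LPS against naive on the right; filled points are called by edgeR at an adjusted p under 0.05 and open points are not. Cdc6, Mcm10, Rrm2 and Pole2 lie far to the right, and Cdt1 lies left of 0. Pold1, Rfc2, Rpa1 and E2f2 lie near 0 or left of it in activated cells.

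Among the 18 genes of helicase loading and activation, 17 rose in GC cells, and 17 rose and 1 fell with each of the 3 stimuli, relative to naive cells. Those counts were equal without naive library B. Cdc6, which loads the helicase ring (ENSMUSG00000017499, chr11:98907801-98923940, plus strand), changed most. Its levels were 79.5, 87.4 and 94.1 CPM in GC libraries A, B and C, against 0.66, 0 and 0.832 CPM in naive libraries A, B and C. Activated libraries held 34.1 to 70.0 CPM (median 52.1), so that none came near the naive level. Cdc6 thus had a log2 fold change of 7.43 ± 0.67 (SE; edgeR, adjusted p = 2.3e-06) in GC cells. In activated cells its log2 fold changes against naive were 6.75, 6.61 and 6.56 with CD40, CpG and LPS. Without naive library B, the value for GC cells was 6.87.

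Mcm10, a helicase activator, was at 87.4, 94.9 and 99.4 CPM in GC libraries, against 0, 0 and 2.43 CPM in naive libraries. It had a log2 fold change of 6.90 ± 1.08 (SE; edgeR, adjusted p = 0.000339) in GC cells, a size that rests on naive library C alone, since A and B had 0 counts. Without naive library C the value was 14.50, and without naive library B it was 6.33. DESeq2 gave Mcm10 no adjusted p in these comparisons. Cdc45, the helicase subunit that joins at firing, was at 113, 111 and 115 CPM in GC and 4.18, 5.57 and 5.06 CPM in naive libraries, a log2 fold change of 4.52 ± 0.19 (SE; edgeR, adjusted p = 7.4e-10).

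All 6 ring subunits rose. On a per-length scale (RPKM, counts per kilobase of exons, scaled to library size as CPM are), Mcm3 averaged 85.4 ± 5.44 in the 9 activated libraries, 127 ± 5.90 in GC and 14.6 ± 2.83 in naive libraries (SD; n = 9, 3 and 3). On this scale Mcm2 was the lowest of the 6 in all 9 activated and all 3 GC libraries. It averaged 21.3 ± 4.68, 48.5 ± 3.74 and 8.09 ± 0.608 RPKM in the same order. This rank and the ratios below depend on the annotated exon lengths used, 6956 bases for Mcm2 and 3589 for Mcm4. In raw counts Mcm2 lay above Mcm4 in all 3 GC libraries. The highest subunit exceeded the lowest by 3.36 to 5.21 times in activated libraries, by 2.50 to 2.74 times in GC libraries and by 2.00 to 2.69 times in naive libraries. In naive libraries A, B and C the highest subunit was Mcm3, Mcm7 and Mcm5 in turn. The log2 fold changes of the 6 ranged from 2.58 for Mcm2 to 3.39 for Mcm6 in GC cells, and from 1.47 to 2.71 for the same pair of genes with CD40.

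Cdt1 (ENSMUSG00000006585, chr8:122568015-122573554, plus strand), the partner of CDC6 in loading, was the exception. Naive cells already held much of its transcript. Its levels were 71.3, 58.2 and 76.0 CPM in CD40 libraries, 67.1, 51.1 and 56.9 CPM in CpG libraries and 67.6, 52.2 and 60.2 CPM in LPS libraries. They were 87.3, 91.6 and 95.7 CPM in GC libraries and 111, 143 and 97.2 CPM in naive libraries. Every activated library lay below every naive library, whereas GC and naive libraries were separated only by a narrow gap. Cdt1 fell with each stimulus, by 0.77 ± 0.17 (SE) on the log2 scale with CD40 (edgeR, adjusted p = 0.00291), and was not called in GC cells at -0.36 ± 0.17 (SE; adjusted p = 0.122).

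Gmnn encodes geminin, which binds CDT1 and blocks loading. It had 156, 149.7 and 181 CPM in GC libraries, against 9.34, 10.5 and 8.29 CPM in naive libraries, a log2 fold change of 4.11 ± 0.16 (SE; edgeR, adjusted p = 4.6e-10). Activated libraries held 48.5 to 68.9 CPM (median 58.6). Per length, the Gmnn level divided by the Cdt1 level was 1.54 to 2.54 in activated libraries, 3.50 to 4.04 in GC libraries and 0.158 to 0.183 in naive libraries. Per length, the inhibitor's transcript therefore exceeded that of its target in all 12 activated and GC libraries and was below it in the 3 naive libraries. The ratio depends on the annotated exon lengths used, 1465 bases for Gmnn and 3140 for Cdt1.

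The origin subunits differed from each other. Orc6 was at 108, 98.4 and 121 CPM in GC and 12.2, 7.65 and 18.5 CPM in naive libraries, with activated libraries at 40.6 to 54.6 CPM (median 45.7). Orc1 was low everywhere, with 10.8 to 30.5 CPM (median 22.4) in activated, 16.0, 15.2 and 13.6 CPM in GC and 3.11, 2.79 and 0.486 CPM in naive libraries. Its log2 fold change was 2.81 ± 0.57 (SE) in GC cells (edgeR, adjusted p = 0.00151) and 3.32 ± 0.59 with CD40 (adjusted p = 0.000555). The kinase gene Cdc7 rose less, with log2 fold changes of 1.66 in GC cells and 0.66 to 0.88 in activated cells. Of the 4 GINS genes, Gins4 was highest per length in all 15 libraries and changed least, by 1.17 in GC cells. Gins1 changed most, by 3.72, and Gins2 and Gins3 lay between at 2.53 and 1.85. Gins2 shares 67.3% of its exonic bases with Gse1 on the opposite strand, and the strand setting of the counting is not given in the sources used here.

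**Figure D3:**
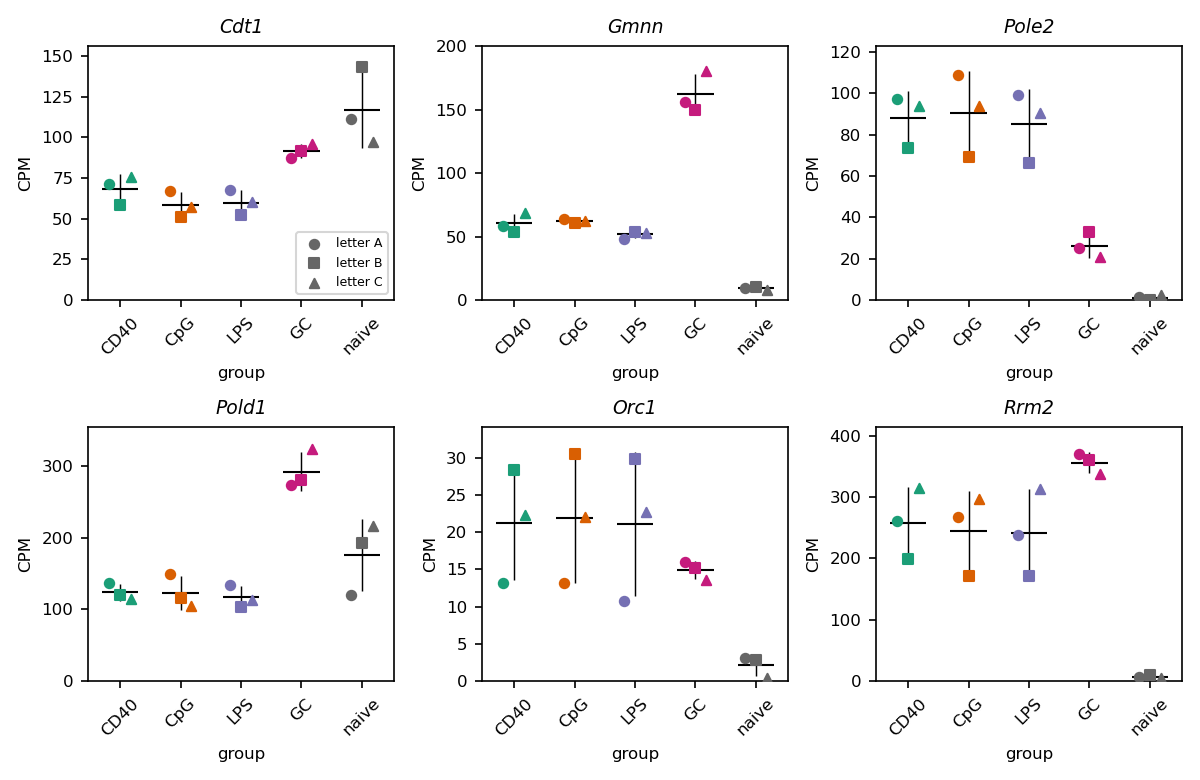
Level in CPM of Cdt1, Gmnn, Pole2, Pold1, Orc1 and Rrm2 in CD40, CpG, LPS, GC and naive libraries; points are libraries with the letter as shape, horizontal lines are group means and vertical lines are SDs (n = 3). Cdt1 is highest in naive libraries, Pole2 is higher in all 9 activated libraries than in GC libraries, and Orc1 and Rrm2 separate by letter within each stimulus.

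Of the 16 genes of polymerases, primase, clamp and fork partners, 14 rose in GC cells relative to naive cells. With CD40 11 rose and 0 fell, with CpG 11 rose and 0 fell, and with LPS 11 rose and 1 fell. Without naive library B, 15 were called higher in GC cells, and 12, 11 and 12 higher and 0 lower with CD40, CpG and LPS. Pole2 (ENSMUSG00000020974, chr12:69201773-69228195, minus strand), the second subunit of polymerase epsilon, had the largest change of the 16 in GC cells. It was at 97.1, 73.7 and 94.0 CPM in CD40, 109, 69.4 and 93.7 CPM in CpG and 99.2, 66.3 and 90.5 CPM in LPS libraries. It was at 25.4, 32.7 and 20.9 CPM in GC and 1.37, 0 and 2.39 CPM in naive libraries. All 9 activated libraries stood above all 3 GC libraries, with no overlap. Against naive cells, Pole2 had a log2 fold change of 4.39 ± 0.73 (SE; edgeR, adjusted p = 0.0005) in GC cells and a log2 fold change of 6.13 ± 0.78 (SE; edgeR, adjusted p = 7.6e-05) with CD40. Its difference from GC cells, 1.74 ± 0.63 (SE) with CD40, was not called over 15 libraries (edgeR, adjusted p = 0.0557). It was called by DESeq2 (adjusted p = 0.0166) and by edgeR on the 6 libraries of that comparison (adjusted p = 0.000144). Over the alternatives run, its log2 fold change against GC cells was 1.51 to 1.94 for CD40, CpG and LPS together, with adjusted p between 0.000144 and 0.192.

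Pole, the catalytic subunit of the same enzyme, was at 78.1 to 91.9 CPM (median 84.8) in activated, 118, 124 and 173 CPM in GC and 18.2, 9.93 and 13.7 CPM in naive libraries. Per length, Pole2 stood at 3.14 to 4.59 times Pole in activated libraries, at 0.469 to 1.02 times in GC libraries and at 0 to 0.678 times in naive libraries. The size of this ratio depends on the annotated exon lengths used, 2881 bases for Pole2 and 11160 for Pole. Pold1, the catalytic subunit of polymerase delta, was already high in naive cells. Its levels were 103 to 149 CPM (median 115) in activated libraries, 273, 279.9 and 324 CPM in GC and 120.4, 192 and 216 CPM in naive libraries. It rose in GC cells by 0.73 ± 0.20 (SE) on the log2 scale (edgeR, adjusted p = 0.0112). Pold1 was lower with LPS than in naive cells at -0.59 ± 0.20 (adjusted p = 0.0346), a call that is lost without any one of LPS libraries B and C and naive libraries B and C (lowest and highest of these log2 fold changes -0.52 and -0.38). With CD40 and CpG it was not called, at -0.51 and -0.52.

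Polymerase alpha and primase make the primers that start each strand. Pola1 was at 137, 118 and 101 CPM in GC and 16.2, 9.25 and 9.57 CPM in naive libraries, a log2 fold change of 3.34 ± 0.26 (SE; edgeR, adjusted p = 2.7e-07). The primase genes Prim1 and Prim2 had log2 fold changes of 3.46 and 2.46 in GC cells and 2.10 and 2.24 with CD40. Pola2 changed less, by 1.47 in GC cells and 0.64 with CD40, and was not called with LPS at 0.43 (edgeR, adjusted p = 0.0644). Its call with CpG, at 0.49, is lost without CpG library A or naive library A.

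Pcna, the sliding clamp that holds polymerases on DNA, had the highest mean level of the 43 per length in GC libraries, 233 ± 18.2 RPKM against 56.4 ± 15.9 RPKM in naive libraries (SD, n = 3 each). Activated libraries averaged 104 ± 14.0 RPKM (n = 9). Its log2 fold change was 2.04 in GC cells and 0.82 to 0.92 in activated cells.

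The clamp loader genes did not move alike. Rfc4 and Rfc5 rose by 2.96 and 2.28 in GC cells and by 1.75 and 1.56 with CD40. Rfc3 was at 141, 129 and 117 CPM in GC and 26.0, 31.8 and 25.5 CPM in naive libraries, a log2 fold change of 2.22 ± 0.19 (SE; edgeR, adjusted p = 5.6e-07). Activated libraries held 29.9 to 46.4 CPM (median 38.8) of Rfc3, a range that overlaps that of naive libraries. It was not called with CD40 or CpG, and its call with LPS at 0.59 ± 0.18 (SE; edgeR, adjusted p = 0.0203) is lost without naive library A.

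Rfc2 was at 149 to 197 CPM (median 179) in activated, 399, 364 and 367 CPM in GC and 170.1, 404 and 189 CPM in naive libraries, so that naive library B lay above the GC values and the other 2 naive libraries far below them. It was not called in any comparison with naive cells over all libraries. Without naive library B, Rfc2 was called higher in GC cells, by 1.07 on the log2 scale (edgeR, adjusted p = 3.92e-05), without naive library A it was called lower with each of the 3 stimuli (-0.72, -0.76 and -0.80), and without naive library C it was called lower with LPS (-0.72). It shares 15.1% of its exonic bases with Lat2 on the opposite strand, a gene with 2047 to 6348 counts per library.

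RPA coats the unwound single strands. Rpa1 rose in GC cells, at 423, 429 and 383 CPM against 118, 171 and 164 CPM in naive libraries (log2 fold change 1.45 ± 0.21, SE; edgeR, adjusted p = 7.8e-05). In activated libraries it held 106 to 171 CPM (median 149.7), which overlaps the naive range, and its log2 fold changes of -0.10, -0.04 and -0.09 were not called. Rpa2 rose in GC cells by 1.26 and in activated cells by 0.71 to 0.82; the call with LPS is lost without naive library A. Lig1, which seals the lagging strand, rose by 2.87 in GC cells and 1.89 to 2.02 in activated cells.

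Fen1, the flap nuclease of the lagging strand (ENSMUSG00000024742, chr19:10199132-10204169, minus strand), was very low in the counts, with 1.29 to 4.03 CPM (median 2.21) in activated, 3.66, 2.54 and 2.97 CPM in GC and 1.43, 0 and 0.382 CPM in naive libraries. Its partner Lig1 had 309.6, 328 and 307 CPM in GC libraries. Of the 2422 exonic bases of Fen1, 1909 (78.8%) overlap exons of Gm10143 on the opposite strand, which itself had 0 to 65 counts per library. How reads in such overlaps were handled is not given in the sources used here, and their part in the low Fen1 counts was not tested. Its log2 fold change in GC cells was 2.32 ± 1.04 and was not called (SE; edgeR, adjusted p = 0.0981). It was called by DESeq2 (adjusted p = 0.0230) and by edgeR without naive library A (adjusted p = 0.0165).

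All 5 genes of deoxynucleotide synthesis rose in GC cells and with each stimulus, relative to naive cells, also without naive library B. Rrm2 (ENSMUSG00000020649, chr12:24708241-24714146, plus strand), the small subunit of ribonucleotide reductase, changed most. It was at 371, 359.8 and 338 CPM in GC libraries, against 6.93, 9.72 and 4.99 CPM in naive libraries, a log2 fold change of 5.62 ± 0.33 (SE; edgeR, adjusted p = 1.5e-08). Activated libraries held 171 to 315 CPM (median 261), and log2 fold changes against naive were 5.16, 5.08 and 5.06. Rrm1, the large subunit, rose less, by 2.64 in GC cells and 2.22 with CD40. Per length, Rrm2 was 3.29 to 5.72 times Rrm1 in activated libraries and 4.30 to 5.96 times in GC libraries, and 0.402 to 0.957 times Rrm1 in naive libraries. The size of this ratio depends on the annotated exon lengths used, 2771 bases for Rrm2 and 11012 for Rrm1.

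Tyms, which makes thymidylate, was at 87.3, 62.9 and 107 CPM in CD40 libraries, 80.1, 79.1 and 75.2 CPM in GC libraries and 2.75, 4.62 and 3.50 CPM in naive libraries. Its log2 fold changes against naive were 4.43 in GC cells and 4.56, 4.37 and 4.63 with CD40, CpG and LPS. Dut, which clears dUTP, rose by 3.42 in GC cells and 1.93 with CD40. The salvage kinase gene Tk1 changed least of the 5, at 135, 129 and 124 CPM in GC and 27.9, 44.7 and 26.6 CPM in naive libraries, a log2 fold change of 1.97 ± 0.19 (SE; edgeR, adjusted p = 2e-06).

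Chaf1a and Chaf1b encode subunits of the CAF-1 complex, which places histones on new DNA. Chaf1a was at 47.0 to 75.8 CPM (median 61.7) in activated, 82.3, 89.3 and 102 CPM in GC and 5.14, 0 and 4.27 CPM in naive libraries, a log2 fold change of 4.85 ± 0.86 (SE; edgeR, adjusted p = 0.000847) in GC cells. Chaf1b was at 69.2, 76.3 and 79.4 CPM in GC and 8.41, 0 and 9.82 CPM in naive libraries, a log2 fold change of 3.62 ± 0.96 (SE; edgeR, adjusted p = 0.011). In activated cells Chaf1b was called with CD40 and LPS, at 2.68 and 2.59, and not with CpG at 2.42. The calls with CD40 and LPS are lost without naive library A or any 1 library of the activated group. Naive library B had 0 counts of both genes. Chaf1a shares 52.5% of its exonic bases with Ubxn6 on the opposite strand.

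The E2F genes differed. E2f1 was at 92.4, 83.3 and 88.4 CPM in GC and 7.47, 5.91 and 5.65 CPM in naive libraries, a log2 fold change of 3.79 ± 0.19 (SE; edgeR, adjusted p = 2.8e-09), and rose by 2.53 to 2.74 in activated cells. E2f2 was at 89.0 to 114 CPM (median 107) in activated libraries, 233, 222 and 249 CPM in GC libraries and 80.8, 151 and 71.6 CPM in naive libraries, so that its transcript was plentiful without activation. It rose in GC cells by 1.22 ± 0.22 (SE; edgeR, adjusted p = 0.000605) and was not called with any stimulus, at 0.01 to 0.11. Without naive library B, which had the highest naive value, E2f2 was called higher with each stimulus, at 0.42 to 0.51.

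Activated cells were set against GC cells next. With CD40, 27 of the 43 genes were lower than in GC cells and 0 were higher, where 12.4% of all genes were called lower and 15.9% higher. With CpG, 27 were lower and 0 higher, against 12.6% and 16.4% of all genes. With LPS, 31 were lower and 0 higher, against 12.2% and 15.8% of all genes. The median log2 fold changes of the 43 were -0.84, -0.86 and -0.91, beside 0.05, 0.05 and 0.06 over all genes. When the 3 activated libraries of a letter were summed, so that activated cells counted as 3 samples, 23 genes were lower and 0 higher. That is a separate fit, to which the all-gene shares above do not apply. The 3 comparisons share the GC libraries.

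With CD40, the genes farthest below GC levels were Rfc3, Gins1, Pola1, Rpa1, Dut and Gmnn. Rfc3 had a log2 fold change of -1.83 ± 0.19 (SE; edgeR, adjusted p = 4.8e-06) with CD40. Gins1 had a log2 fold change of -1.68 ± 0.32 (SE; edgeR, adjusted p = 0.00121), with activated libraries at 8.80 to 20.8 CPM (median 15.5) and GC libraries at 48.5, 48.0 and 47.5 CPM. The other 4 genes had log2 fold changes of -1.57, -1.55, -1.48 and -1.42 with CD40.

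At the other end, 12 genes were called in no activated group against GC cells. They were Orc1, Cdc6, Mcm10, Gins2, Prim2, Pole2, Rpa2, Fen1, Rrm2, Tyms, Chaf1a and Chaf1b. Tyms was closest, with log2 fold changes of 0.13 ± 0.23, -0.06 ± 0.23 and 0.20 ± 0.23 (SE) for CD40, CpG and LPS. Rrm2 was at -0.46 ± 0.27 and Prim2 at -0.22 ± 0.18 with CD40. Gene by gene, several of these have large SEs, 0.81 for Mcm10 and 0.87 for Chaf1b, and a missed threshold does not show that their levels were alike. The SEs come from the fit of all 15 libraries, so that spread among naive libraries enters them too. Cdc6, Mcm10, Pole2, Fen1, Chaf1a and Chaf1b had 0 counts in naive library B. Of these genes, Cdc6, Mcm10, Prim2, Rpa2, Rrm2, Chaf1a and Chaf1b were lower in every activated library than in every GC library. Pole2 was higher in every activated library, and Orc1, Gins2, Fen1 and Tyms overlapped. In fits of only the 6 libraries of each comparison, 36, 35 and 37 genes were called in either direction with CD40, CpG and LPS. The all-gene shares given above belong to the fit of all libraries, and those of these smaller fits are not given here. Pole2, higher than in GC cells, was among those called with CD40.

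**Figure D4:**
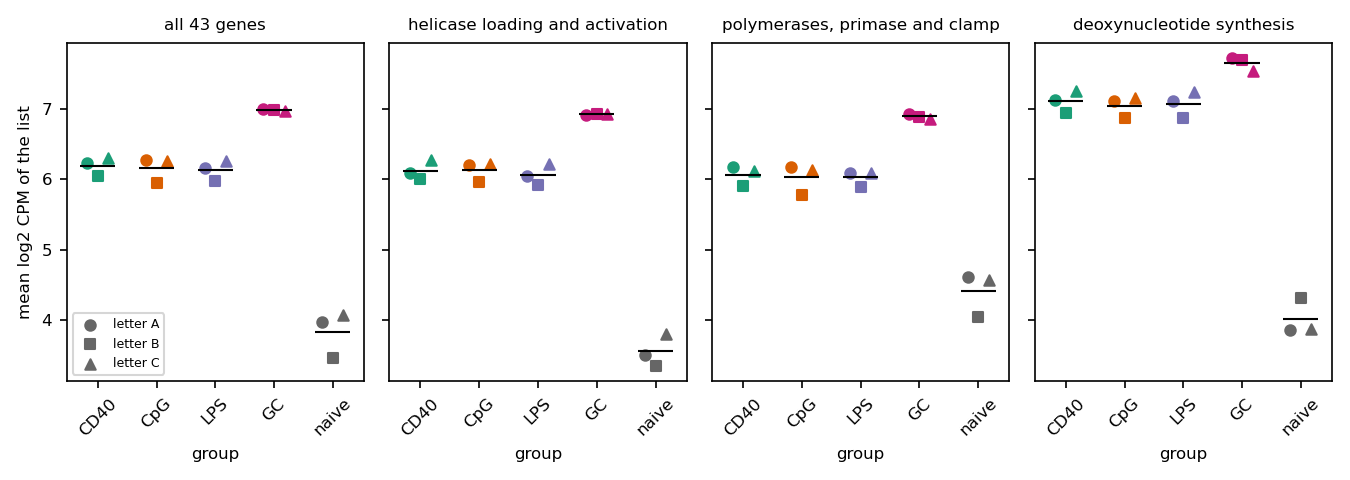
Mean log2 CPM of all 43 genes and of their 3 larger role lists in each library, with CD40, CpG, LPS, GC and naive groups across the page, letters as shapes and horizontal lines as group means (n = 3). GC libraries lie highest at 6.96 to 6.99 for all 43 genes, activated libraries between 5.95 and 6.30 and naive libraries between 3.46 and 4.07, and letter B is lowest within each stimulus.

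The 43 genes together took 0.360% to 0.486% of the counts of an activated library, 0.825% to 0.850% of a GC library and 0.166% to 0.182% of a naive library. Their mean log2 CPM was 6.13 to 6.19 over the 3 activated groups, 6.98 ± 0.02 in GC libraries and 3.84 ± 0.33 in naive libraries (SD, n = 3). The mean log2 CPM of 20 mitosis genes was 6.30 to 6.65 in activated, 7.45 to 7.53 in GC and -0.70 to 0.95 in naive libraries. All 20 rose in GC cells and with each stimulus relative to naive cells, also without naive library B. Against GC cells, 6 of the 20 were lower and 0 higher in each activated group, where 12.2% to 12.6% of all genes were called lower. Their group means were 7.49 in GC cells and 6.41 to 6.46 in the activated groups. With LPS, their log2 fold changes against GC ran from -1.91 for Kif23 to -0.56 for Cenpf. Several that were not called had large SEs, as Cdk1 at -0.80 ± 1.00 (SE). The count called therefore does not show a smaller fall than in the 43 genes.

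Genes that work beside the 43 were taken as further lists by function. Of 16 other origin and helicase factors, 11 rose and 0 fell in GC cells and 8 rose and 0 fell with CD40, relative to naive cells. Their median log2 fold changes were 1.30 and 0.82. Leaving out naive library B, 13 were called higher in GC cells and 9 with CD40. Ticrr and Recql4 changed most in GC cells, by 5.56 and 3.69, and Donson and Mcm9 least, at 0.25 and 0.28. Of 20 other fork and lagging strand factors, 15 rose and 0 fell in GC cells, with a median of 1.90. Clspn and Top2a led at 6.36 and 6.09, and Chtf8 and Rnaseh2c were lowest at -0.26 and 0.23. With CD40, 11 of the 20 rose and 2 fell. With naive library B left out, 17 were called higher in GC cells, and 12 higher and 2 lower with CD40.

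Other genes of deoxynucleotide metabolism moved in both directions. Of 15, 6 rose and 1 fell in GC cells, with a median of 0.46, and 5 rose and 4 fell with CD40, with a median of -0.09. When naive library B was left out, 8 were called higher and 1 lower in GC cells, with a median of 0.93, and 7 higher and 4 lower with CD40. Dck, the deoxycytidine salvage kinase, was at 12.7 to 44.4 CPM in activated, 406 to 474 CPM in GC and 22.6 to 51.8 CPM in naive libraries. Activated and naive ranges of Dck overlapped, and GC libraries stood far above both. Its log2 fold change was -3.89 ± 0.54 for CD40 against GC (SE; edgeR, adjusted p = 0.000164) and 3.56 ± 0.54 for GC against naive (adjusted p = 0.000212). Tk2 and Cmpk2 were lowest in GC cells, at -2.10 and -1.07, with only 1 of the 15 genes called lower.

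Of 18 genes of purine and pyrimidine ring synthesis, 10 rose and 4 fell in GC cells, and 12 rose and 1 fell with CD40, relative to naive cells. The medians were 0.63 and 0.80. The counts without naive library B were 12 higher and 3 lower in GC cells, and 14 higher and 1 lower with CD40. Paics and Umps changed most in GC cells, by 1.73 and 1.53, and Ctps2 and Impdh1 were lowest at -1.56 and -1.54. Against GC cells, CD40 cells had 5 of the 18 higher and 4 lower. Cad, which starts pyrimidine synthesis, was at 120.0 to 229 CPM in activated, 58.8 to 83.9 CPM in GC and 97.7 to 109 CPM in naive libraries, so that GC cells held the least.

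Of 11 histone chaperone and supply genes, 9 rose and 0 fell in GC cells, with a median of 1.79, from 0.58 for Npat and 0.84 for Supt16 to 2.75 for Nasp and 4.76 for Asf1b. Of the 11, 8 were called higher without naive library B. Of 15 other E2F and RB family genes, 7 rose and 2 fell in GC cells, with a median of 0.78, and without naive library B 9 were called higher and 3 lower. The repressors E2f7 and E2f8 had the largest changes, 8.21 and 5.79, and Rb1 and Tfdp2 the lowest, -1.29 and -0.86. Of 15 replication checkpoint genes, 9 rose and 1 fell, with or without naive library B. Their median was 1.17, led by Ccna2 and Chek1 at 6.70 and 5.84, with Atr and Atrip lowest at -0.98 and -0.41.

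No difference between the stimuli was called for these genes. Of the 43 genes, 0 were called for CD40 against LPS, CpG against LPS or CD40 against CpG, and 0% of all 17144 genes were called in each pair by edgeR. At an unadjusted p under 0.05, 0 of the 43 passed in each pair, and 115, 71 and 92 of all genes. The log2 fold changes of the 43 lay between -0.20 and 0.26, between -0.26 and 0.33, and between -0.28 and 0.26 in the 3 pairs, with a median SE of 0.20. Since same-letter libraries deviate together, a fit of the 9 activated libraries with letter as a replicate block is more precise, with a median SE of 0.08. It called 0 of the 43 genes and 44, 45 and 27 of all genes. In it 9, 6 and 4 of the 43 had an unadjusted p under 0.05, as did 1420, 1071 and 954 of all genes. DESeq2 called 0 of the 43 in each pair.

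The activated libraries differed by letter. The letters were compared within the 9 activated libraries with stimulus as a term, over 15727 genes. This takes the 3 differently stimulated libraries of a letter as its replicates. The p-values between letters therefore reflect only the spread among those cultures, which may share their animals. Relative to B, A had 25 of the 43 genes higher and 2 lower, where 16.6% of all genes were called higher and 14.5% lower. Relative to C, A had 3 higher and 6 lower, against 11.9% and 11.5% of all genes. Relative to C, B had 2 higher and 27 lower, against 17.3% and 17.5% of all genes. The median log2 fold changes of the 43 were 0.26, -0.06 and -0.27 for A against B, A against C and B against C, beside 0.01, 0.02 and 0.02 over all genes. Leaving out 1 library brought the calls in B against C down to 19 (without CpG library B) and those in A against B down to 19.

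**Figure D5:**
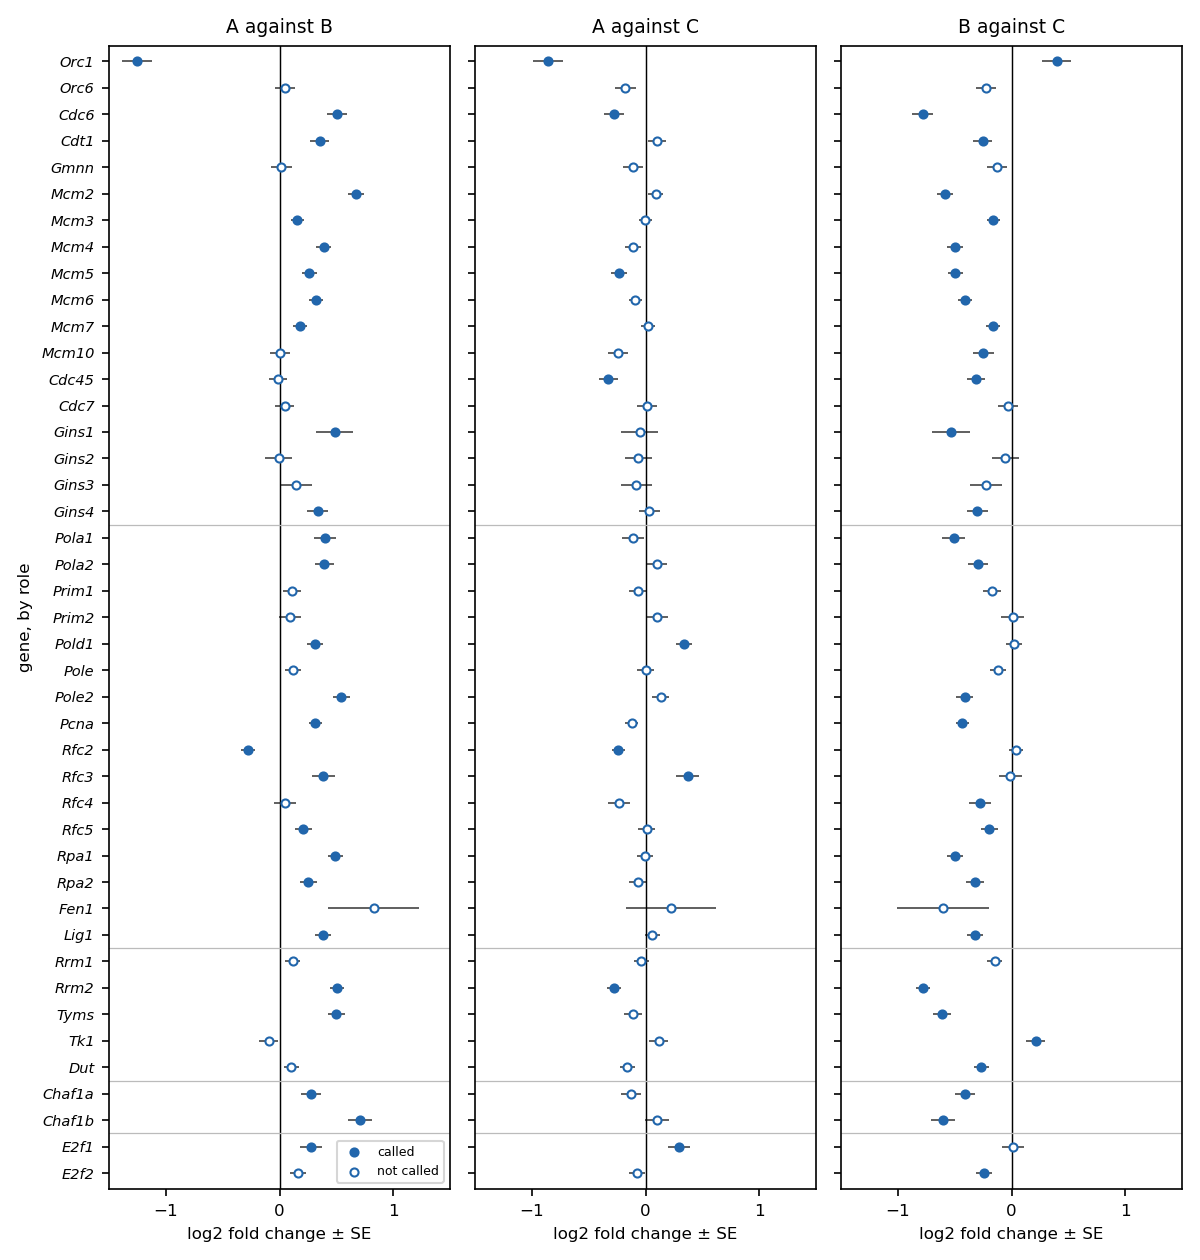
Log2 fold change with its SE of each of the 43 genes between the letters of the 9 activated libraries, A against B, A against C and B against C, with filled points called by edgeR at an adjusted p under 0.05. Most points lie right of 0 in A against B and left of 0 in B against C, and Orc1 lies on the opposite side in both.

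Rrm2 and Cdc6 differed most in B against C. Rrm2 was at 199, 171 and 171 CPM in the B libraries of CD40, CpG and LPS, against 315, 296 and 313 CPM in the C libraries, with 261, 267 and 238 CPM in the A libraries. The B values lay below all the others, whatever the stimulus. Rrm2 had a log2 fold change of -0.78 ± 0.06 (SE; edgeR, adjusted p = 1.7e-10) in B against C. Cdc6 was at 40.7, 35.1 and 34.1 CPM in B, against 70.0, 59.2 and 59.8 CPM in C libraries, a log2 fold change of -0.78 ± 0.09 (SE; edgeR, adjusted p = 1.1e-07). Mcm2 and Chaf1b differed most among the genes higher in A than in B. Mcm2 was at 174, 193 and 152 CPM in A, against 118, 104 and 103 CPM in B libraries, a log2 fold change of 0.67 ± 0.07 (SE; edgeR, adjusted p = 2.2e-08). Chaf1b was at 49.1, 39.9 and 38.6 CPM in A, against 26.6, 23.6 and 28.1 CPM in B libraries, a log2 fold change of 0.71 ± 0.11 (SE; edgeR, adjusted p = 1.1e-05).

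Orc1 went the other way. It was at 13.2, 13.2 and 10.8 CPM in A libraries, against 28.3, 30.5 and 29.8 CPM in B libraries, with 22.4, 22.0 and 22.7 CPM in C libraries. The 3 letters did not overlap in Orc1. It had a log2 fold change of -1.26 ± 0.13 (SE; edgeR, adjusted p = 2.8e-08) in A against B and a log2 fold change of -0.86 ± 0.13 (SE; edgeR, adjusted p = 1.5e-05) in A against C. It was higher in B than in C by 0.40 ± 0.13 (SE; edgeR, adjusted p = 0.016), a call that is lost without CpG library B, LPS library B or CpG library C. Orc1 shares 10.8% of its exonic bases with Gm12743 on the opposite strand, which had 0 to 52 counts per library.

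Rfc2 was the other gene lower in A than in B, at 156, 155 and 149 CPM in A, against 197, 179 and 181 CPM in B libraries (-0.28 ± 0.06, SE; edgeR, adjusted p = 0.000712). Pold1, Rfc3 and E2f1 were higher in A than in C, at 0.34, 0.37 and 0.29 on the log2 scale. The calls of Rfc3 and E2f1 are lost without either CpG library, A or C, and that of E2f1 also without either CD40 library. Orc6, Gmnn, Cdc7, Gins2, Gins3, Prim1, Prim2, Pole, Fen1 and Rrm1 were called in no pair of letters.

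Other lists moved with the letters too. The 8 B cell markers summed to 9868 to 10170 CPM in A, 9103 to 9806 CPM in B and 21515 to 34831 CPM in C libraries. GC markers summed to 1593 to 1757 CPM in A, 901 to 995 CPM in B and 927 to 1118 CPM in C libraries. Follicular markers summed to 1420 to 1480 CPM in A, 658 to 733 CPM in B and 535 to 584 CPM in C libraries. Plasma cell markers were lowest in B and highest in C libraries, at 2839 to 2973 CPM in A, 2016 to 2148 CPM in B and 4781 to 6647 CPM in C libraries. The 6 dendritic cell markers were highest in B, where the 43 genes were lowest, and summed to 76.5 to 95.9 CPM in A, 210 to 249 CPM in B and 69.1 to 94.8 CPM in C libraries. Most of that sum in B was Flt3, at 165, 204 and 171 CPM in its CD40, CpG and LPS libraries, while Clec9a was at 0 in every activated library. Of the 20 mitosis genes, 5 were higher and 0 lower in A against B, 0 higher and 8 lower in A against C, and 0 higher and 13 lower in B against C. The part of these lists in the letter differences of the 43 genes was not tested, and what the letters stand for is not stated.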

How the data were processed

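RNA of 15 libraries was sequenced from poly(A)-selected, directional libraries (NEB Ultra II kit, Illumina), per the labels. The authors deposited whole-number counts per gene, made with STAR 2.7.10a and featureCounts 2.0.6 on GRCm38 (mm10), per the submitters' processing notes. The strand setting and annotation release are not given in the sources used here. Libraries held 25397624 to 36272197 counts, and precision rests on 3 libraries a group.

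Counts were analysed in R 4.3.3 with edgeR 4.0.16: genes with low counts were removed by group, library sizes were TMM-adjusted, and 1 mean per group was fitted to all 15 libraries by quasi-likelihood (17144 genes). Adjusted p-values are Benjamini-Hochberg values over all genes tested, with a threshold of 0.05. Letters were compared in a second fit of the 9 activated libraries with stimulus as a term. CPM were computed from TMM-adjusted sizes, mean log2 CPM with a prior count of 2, and RPKM from the union of annotated exons. Tests were also run on simulated counts, and the outcome of that run is not reported here. DESeq2 1.42.0, other scalings, no filter, fewer libraries and a replicate block were alternatives. Counts of the roles and further lists without naive library B were added after seeing the data.

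The 43 genes and the other lists were chosen with earlier results of these data known. Values are given in full for the largest and smallest change of each role, for genes that depart from their role and for the largest letter differences; other lists are given as counts with the 2 largest and 2 smallest changes. A gene that this rule would name is not reported here. The letters pair the activated groups: deviations from group means of same-letter libraries correlated at 0.36 to 0.50 between stimuli, and at -0.07 to 0.08 with GC or naive libraries, across genes.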

Additional observations from a re-analysis of the deposited data

How the results depend on the processing

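Over the alternatives run, no call of the 43 genes reversed. Of the values for single genes under alternatives, 4985 kept their direction and side of the threshold, 220 lost a call and 77 gained one. Counts of called genes here take both directions together. Leaving out 1 library gave 40 to 41 genes called for GC against naive, 36 to 39 for CD40, 36 to 38 for CpG and 36 to 39 for LPS against naive. It gave 25 to 26 for CD40, 25 to 26 for CpG and 24 to 28 for LPS against GC, and 0 between stimuli. For the letters it gave 19 to 25 in A against B, 6 to 8 in A against C and 19 to 25 in B against C, the lowest of the last without CpG library B; the cause was not tested. With the replicate block, 41 genes were called for GC and 37, 37 and 38 for CD40, CpG and LPS against naive, and 29, 29 and 31 against GC. GC and naive libraries share only a letter with the others. Fits of 6 libraries called 39 for GC and 33, 32 and 31 for CD40, CpG and LPS against naive. All-gene shares under the alternatives are not given here. With 3 libraries a group and genes near 0 counts in naive cells, the sizes of the changes in Cdc6, Mcm10, Pole2, Chaf1a and Chaf1b are poorly fixed: without naive library B their log2 fold changes in GC cells were 6.87, 6.33, 3.82, 4.27 and 3.04, and that of Mcm10 without naive library C was 14.50.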
